A study of Mus musculus with 54 samples.

Results

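This account covers the mature microRNAs of 6 families that are abundant in white blood cells (miR-142, miR-146, miR-150, miR-155, miR-223 and miR-342), read in dissected intestinal tissue and in sorted intestinal cells of the mouse. Members were the entries of the small RNA table whose plain name, without a numbered suffix, begins with mir-142, mir-146a, mir-146b, mir-150, mir-155, mir-223 or mir-342. The rule used names and no measured value, and it gave 12 of the 2602 entries in the table, of which 635 are plain-named. The names did not behave as 1 leukocyte reading. miR-150-5p was higher in every crypt and villi library than in any sorted one, and miR-155-5p likewise except for 1 Cd24-Low library. miR-142-5p was highest in crypts, with villi overlapping Cd24-Low cells. miR-146a-5p and miR-342-5p were also high in sorted Sox9-EGFP Low cells of chow-fed mice, with lower means in those of conventionalized and germ-free mice. miR-146b-5p was lower in dissected tissue than in most sorted groups.

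The 30 small RNA libraries came from the small intestine of C57BL/6J mice and fall into 8 groups. Crypts, the proliferating pockets of the epithelium, and villi, the finger-like folds above them, were dissected (4 libraries each) and so can hold whatever cells lie in that tissue. Sorted crypt cells with low Sox9-EGFP, a fluorescent reporter driven by the progenitor gene Sox9, came from chow-fed mice, from germ-free mice, which carry no microbes, and from conventionalized mice, which are germ-free mice given microbes (4 libraries each). Sox9-EGFP Negative cells came from the same 4 chow-fed mice as the Low cells. The other sorted groups were Cd24-Low cells (4 libraries), sorted on the surface protein Cd24, and Lgr5-High cells (2 libraries), named after a stem cell receptor in their titles but Lgr4-High in the source label. The labels used here give no age, allele of the reporter or sorting gate for these groups. The columns of the third chow-fed mouse name a high fat diet against a chow label, and the label was followed. For crypt, villi, Cd24-Low and Lgr5-High libraries nothing says that each came from its own animal, so p-values there measure the spread between libraries, which may be technical.

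Each value is in RPMMM, the authors' name for a unit in which each library sums to about 1000000, so it is a share of that library's small RNA and not an amount per cell. In 28 of the 30 libraries low values rose in steps, and if a step is 1 read the libraries held 1.74 M to 30.8 M reads. The lowest value listed above 0 ran from 0.33 to 5.92 RPMMM by library, at a median of 10.3 steps, so an entry listed at 0 may still have had a few reads. Epithelial microRNAs were high in every group: the 8 of 9 listed that were found by exact name summed to between 104432 RPMMM in a crypt library and 618417 in a Negative library. The name left out was miR-194-5p, which is entered as mir-194-1-5p and mir-194-2-5p.

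MicroRNAs are short RNAs that pair with messenger RNAs, chiefly through bases 2 to 8 of the microRNA (the seed), and lower their output. miR-142 is made throughout the blood lineages, miR-150 is abundant in resting mature B and T lymphocytes, and miR-223 is abundant in neutrophils and other myeloid cells. miR-155 and the miR-146 pair are switched on when immune cells are activated, and miR-146 damps the signalling of Toll-like receptors. miR-342 is made from an intron of Evl, a regulator of the actin skeleton, and is found in lymphoid and myeloid cells. The intestine holds many leukocytes, both between epithelial cells and in the tissue beneath them.

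Mature sequences from RefSeq, placed on GRCm38.p6, were matched to 11 of the 12 names, and the entries named miR-142 were matched to its miR-142a. The sequences below are those of the members that the results turn on, 5′ to 3′, with the seed in capitals. miR-155-5p is the member with the largest single departure, the miR-146 pair shows a shared seed with different patterns over the groups, and the miR-142 and miR-342 arms show which strand of each hairpin was recorded. miR-150-5p is given by name only, beside its other arm.
miR-155-5p: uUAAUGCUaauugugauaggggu
miR-146a-5p: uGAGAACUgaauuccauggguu
miR-146b-5p: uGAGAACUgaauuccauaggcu
miR-142-5p: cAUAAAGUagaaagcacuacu
miR-142-3p: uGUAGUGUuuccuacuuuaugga
miR-342-5p: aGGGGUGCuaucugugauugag
miR-342-3p: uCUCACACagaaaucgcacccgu
miR-150-3p: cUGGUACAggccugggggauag

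miR-146a-5p and miR-146b-5p share the seed GAGAACU and 20 of their 22 positions, and counting from the 5′ end of miR-146a-5p they differ by G18A and U21C. No other seed was shared among the matched members. In the GENCODE annotation of GRCm38 (mm10, the build named in the submitters' processing notes), Mir142 lies on the plus strand of chromosome 11 from 87756864 to 87756927, in an intron of the noncoding gene Mir142hg and opposite the antisense gene Mir142b. Mir146, the gene of miR-146a, is on chromosome 11, minus strand, between 43374397 and 43374461, and overlaps no gene. Mir146b lies in an intron of Mfsd13a on chromosome 19, from 46342762 to 46342870. Mir150 (chromosome 7, 45121757 to 45121821) overlaps no gene. Mir155 (chromosome 16, 84714140 to 84714204) lies in an exon of Mir155hg. Mir342 (chromosome 12, 108658620 to 108658718) lies in an intron of Evl, and Mir223 (chromosome X, 96242817 to 96242926) in an exon of the noncoding gene F630028O10Rik, each on the strand of its host.

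miR-150-5p, the lymphocyte microRNA, separated dissected tissue from sorted cells most plainly. In crypts it stood at 552, 256, 191.6 and 407 RPMMM in replicates 1 to 4, and in villi at 63.1, 61.1, 24.9 and 38.8. It was listed at 0 in all 16 Sox9-EGFP libraries. The Cd24-Low libraries gave 4.84, 11.98, 9.29 and 1.91 RPMMM, and the Lgr5-High libraries 5.44 and 0. Every crypt library was thus above every villi library, and every villi library above every sorted one. The other arm, miR-150-3p, was listed at 17.4, 5.34, 8.87 and 21.5 RPMMM in crypts, at no more than 2.51 in villi, and at 0 in all 22 sorted libraries.

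miR-155-5p, the activation-linked microRNA, followed the same order in tissue. It stood at 1587, 816, 701 and 1322 RPMMM in crypts and at 241.7, 261, 237 and 146.2 in villi. Sox9-EGFP Low cells gave 26.4, 16.7, 10.3 and 32.3 RPMMM in chow-fed mice, 24.6, 40.99, 23.6 and 48.9 in conventionalized mice, and 15.1, 18.8, 10.6 and 15.4 in germ-free mice. The Negative cells gave 2.32, 0, 0 and 3.56, and the Lgr5-High cells 34.6 and 29.8. All Sox9-EGFP and Lgr5-High libraries were thus below the lowest villi library, and 2 Negative libraries were listed at 0.

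The Cd24-Low libraries broke this order at 1 point. Their miR-155-5p values were 41.6, 2896, 63.8 and 22.2 RPMMM, so replicate 2 was the highest of the 30 libraries read here, crypts included. Over the 238 features compared in this way, miR-155-5p lay highest above the other Cd24-Low libraries in replicate 2, by 5.48 on the log2(RPMMM + 1) scale over the highest of them. The next feature, mir-5105_-_1, lay 1.77 above. An extra entry named mir-155-5p_+_1 moved the same way, at 51.6 RPMMM in replicate 2 against 1.17, 3.22 and 0.78 in the others. The other members of that library did not stand apart: miR-150-5p was 11.98, miR-142-5p 35.3, miR-146a-5p 339.9 and miR-342-5p 23.9 RPMMM. Results that use the Cd24-Low group are given with and without it.

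**Figure D1:**
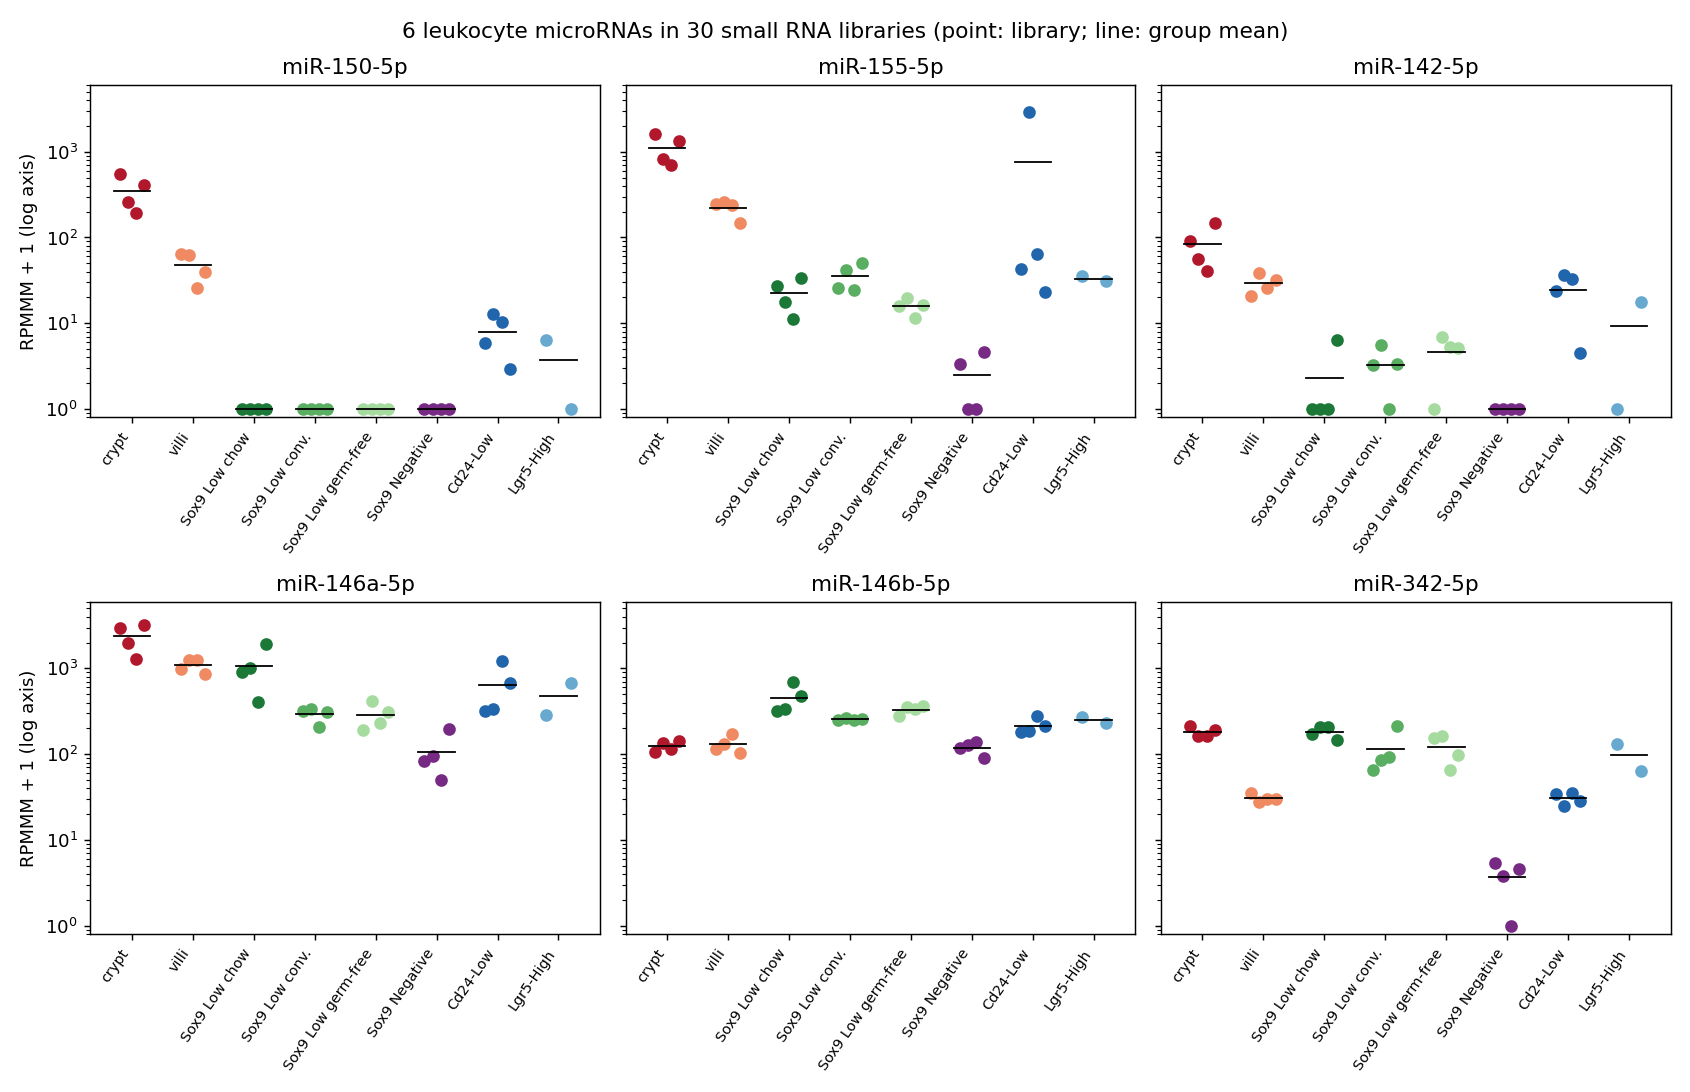
Level of the 6 members that reached a group mean of 50 RPMMM, as RPMMM + 1 on a log axis, in the 8 groups (points, libraries; lines, group means). miR-150-5p and miR-155-5p sit highest in crypts, apart from 1 Cd24-Low library at 2896 RPMMM of miR-155-5p, while miR-146b-5p is lowest in crypts, villi and Sox9-EGFP Negative cells.

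miR-142-5p, of the blood lineages at large, was listed at 89.3, 54.8, 40.1 and 146.2 RPMMM in crypts and at 19.8, 37.2, 24.9 and 31.3 in villi. The Cd24-Low libraries, at 22.99, 35.3, 31.9 and 3.46, overlapped the villi. The Lgr5-High libraries gave 0 and 16.5, no Sox9-EGFP Low library exceeded 5.88, and all 4 Negative libraries were at 0. Most of the signal under this name lay in a different entry, mir-142-5p_-_2, whose suffix is not explained in the sources used here and which is therefore uncertain. It was singled out after its values were seen. It stood at 361, 254, 169.9 and 860.4 RPMMM in crypts, at 138, 175, 173 and 158 in villi, and at 70.9, 104.6, 86.5 and 13.6 in Cd24-Low cells. Suffixed entries held 83.5% of the summed miR-142-5p signal in crypts and 85.4% in villi. The same share was 0.754% for miR-146a-5p, 1.11% for miR-155-5p and 26.6% for miR-342-5p in crypts.

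**Figure D2:**
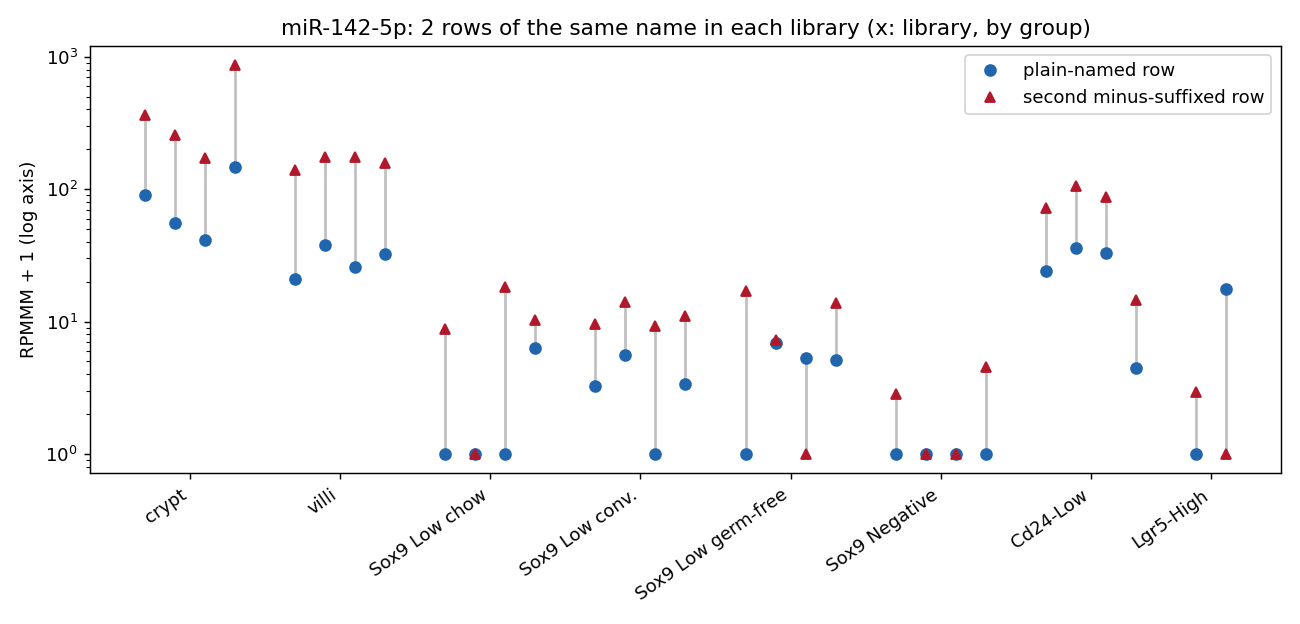
RPMMM + 1 (log axis) of the plain miR-142-5p entry (circles) and of the entry mir-142-5p_-_2 (triangles) in each of the 30 libraries, grouped along the x axis. In all 12 crypt, villi and Cd24-Low libraries the suffixed entry lies above the plain one.

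Members with few reads complete the list. Under its plain name miR-142-3p, usually the more abundant arm in blood cells, was listed above 0 in only 2 of 30 libraries. It stood at 1.96 RPMMM in villi replicate 2 and 1.09 in Cd24-Low replicate 1. Suffixed entries held 100% of its summed signal in crypts, 83.4% in villi and 94.3% in Cd24-Low cells. With them, its mean was 7.275 RPMMM in crypts, 2.945 in villi and 4.745 in Cd24-Low cells. miR-223-3p, the myeloid marker of the list, reached at most 5.57 RPMMM (villi replicate 3), and miR-223-5p 0.99 in 1 library. miR-146b-3p was listed in 2 libraries, at 4.93 and 6.31 RPMMM. Myeloid miR-223 was thus near or at 0 in the same crypt libraries in which lymphocyte miR-150-5p reached 191.6 RPMMM or more.

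miR-146a-5p, the most abundant member, was spread over all groups. It stood at 2993, 1957, 1281 and 3196 RPMMM in crypts, at 975, 1265, 1254 and 849 in villi, and at 919, 1016, 409 and 1948 in Sox9-EGFP Low cells of chow-fed mice. The conventionalized mice gave 317, 339.8, 205 and 313 in these cells and the germ-free mice 189.7, 412, 227 and 311. The Negative libraries gave 81.9, 93.5, 48.5 and 197, the Cd24-Low ones 314.7, 339.9, 1218 and 684, and the Lgr5-High ones 286 and 674. In the order of group means, crypts did not overlap villi, while every later neighbour overlapped the one before it.

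miR-146b-5p, with the same seed, had a different order. Its mean was 456 ± 169 RPMMM in Sox9-EGFP Low cells of chow-fed mice, 330.2 ± 37.5 in those of germ-free mice and 255 ± 5.20 in those of conventionalized ones (SD, n = 4 each). It was 214.7 ± 44.6 in Cd24-Low cells (SD, n = 4) and 251 ± 32.2 in Lgr5-High cells (SD, n = 2). The 3 lowest groups, villi at 129 ± 29.2, crypts at 124 ± 16.6 and Negative cells at 117 ± 21.2 (SD, n = 4 each), overlapped one another. All 8 dissected libraries, at 102 to 169 RPMMM, were below all Cd24-Low, Lgr5-High and Sox9-EGFP Low libraries, of which the lowest was 181.4.

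miR-342-5p was as high in sorted Sox9-EGFP Low cells of chow-fed mice as in crypts. It stood at 214.7, 160.3, 160.35 and 190.1 RPMMM in crypts and at 169, 208, 209 and 144.2 in the Low cells of chow-fed mice. Villi gave 33.95, 26.4, 29.1 and 29.4 and Cd24-Low cells 33.4, 23.9, 34.4 and 27.4. The conventionalized mice gave 65.1, 83.6, 92.5 and 209.7, the germ-free mice 153.9, 163, 63.7 and 96.9, and the Lgr5-High cells 131 and 63.1. In Negative cells it fell to 4.32, 2.77, 0 and 3.56. The other arm, miR-342-3p, ran from 16.8 to 30.9 RPMMM in crypts, 4.03 to 11.9 in villi and 9.95 to 36.5 in Low cells of chow-fed mice, and was at 0 in all Negative libraries.

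The first comparison asked how crypts differ from villi, the 2 dissected tissues. Of the 6 members tested, limma called 5 and all were higher in crypts, where 46.9% of the 239 features tested were called in either direction and 36.4% were called higher. Features averaging 50 RPMMM or more across the libraries in a fit were tested, on log2(RPMMM + 1), a scale that understates changes of low features, and were called at a Benjamini-Hochberg adjusted p under 0.05 over all features. miR-150-5p differed by 2.85 (standard error 0.40, a 7.22-fold difference, limma adjusted p = 0.000634). miR-342-5p differed by 2.57 (0.21, 5.92-fold, limma adjusted p = 7.89e-05) and miR-155-5p by 2.27 (0.30, 4.82-fold, limma adjusted p = 0.000534). In all 5 called members every crypt library exceeded every villi library. The share of all 239 features that separate in this way was not counted. Of the 6 members, miR-142-5p, miR-150-5p and miR-342-5p reached a mean of 50 RPMMM in crypts only, so the filter itself favoured a higher crypt value and the count of 5 is a description. In a fit with no filter their differences kept limma adjusted p-values of 0.0287, 0.000587 and 3.73e-05.

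miR-142-5p differed by 1.38 (limma adjusted p = 0.0184) and miR-146a-5p by 1.05 (limma adjusted p = 0.0164). After median-of-ratios scaling these became 0.93 (limma adjusted p = 0.0742) and 0.59 (limma adjusted p = 0.0716), so neither call held, while the other 3 did. That scaling moved the median of all features from 0.387 to -0.07 and the calls from 87 higher and 25 lower to 40 higher and 61 lower. miR-146a-5p also missed the threshold without villi replicate 4 (limma adjusted p = 0.0508). miR-146b-5p differed by -0.04 (standard error 0.22, limma adjusted p = 0.895). The entry mir-142-5p_-_2 differed by 1.08 (limma adjusted p = 0.064). Crypt and villi columns all name lane 4, so no lane number differed between them, and the columns name no run.

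Other cell types moved between crypts and villi too. Erythroid miR-486-5p, of red blood cells, stood at 945 ± 222 RPMMM in crypt libraries against 281 ± 204 in villi libraries (SD, n = 4 each), 1.97 higher on the log2 scale (limma adjusted p = 0.00479). Over the erythroid list, 3 of 5 names found, the sum ran from 767 to 1264 RPMMM in crypts and from 117 to 577 in villi. The mesenchymal and muscle list had 6 of 13 names found by exact name and was dominated by miR-143-3p. It summed to between 13573 and 25798 RPMMM in crypts and between 5772 and 51696 in villi, which overlap. Of its 3 names tested, miR-143-5p was called higher in crypts (1.54, limma adjusted p = 0.0303). Entries with a numbered gene copy in their names, such as mir-133a-1-3p and mir-199a-1-3p, were not matched. The endothelial list, 2 of 4 found, stayed between 3.91 and 40.2 RPMMM in both. The epithelial names summed to between 104432 and 156622 RPMMM in crypts and between 263301 and 414539 in villi, as shares of a fixed total per library. From a list of other leukocyte-linked microRNAs, 8 of 12 names were found in the same way. Of 5 of these tested, 3 were called higher in crypts (miR-181c-5p, miR-181d-5p and miR-652-3p) and none lower, with a median of 0.80. Listed microRNAs entered under other names fell outside this count. Of these, mir-181a-1-5p differed by 1.345 (limma adjusted p = 0.000634) and mir-21-5p by -0.45 (limma adjusted p = 0.0498). Against the sorted groups the 5 tested names were mixed: 2 were called higher and 1 lower in crypts, and 1 higher and 2 lower in villi. The summed level of the names found had a median of 1930 RPMMM in crypts and 1020 in villi. In Sox9-EGFP Low cells of chow-fed, conventionalized and germ-free mice it was 3787, 4065 and 2621. It was 2630 in Lgr5-High, 1449 in Cd24-Low and 671 in Negative cells. That sum leaves out mir-181a-1-5p, which averaged 6232 RPMMM in crypts, 2481 in villi, 2695.5 in chow Low and 629 in Negative cells. Also left out is mir-21-5p, at 8219, 11188, 17320 and 26886 in the same groups. The order over the whole list is therefore not given. The part of red cell, stromal or other cell content in the member differences was not tested. In bulk tissue, fewer leukocytes and less microRNA per leukocyte cannot be told apart.

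**Figure D3:**
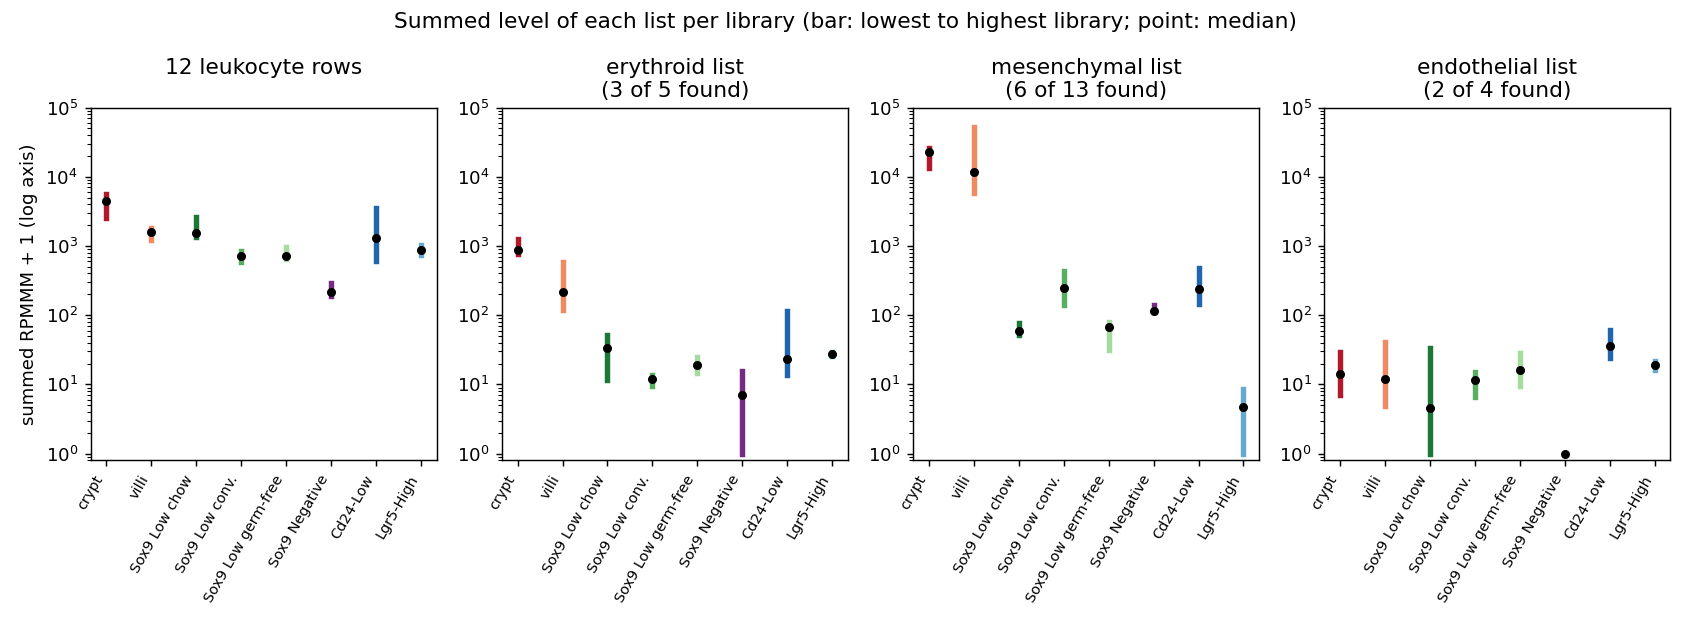
Summed RPMMM + 1 (log axis) of the 12 members and of 3 lists for other cell types, as far as found by exact name, in the 8 groups (bars, lowest to highest library; points, median). Erythroid and mesenchymal sums are higher in crypts and villi than in any sorted group, and the endothelial sums are low throughout.

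Dissected tissue was then set against the 6 sorted groups, each weighted equally, in 1 fit over all 30 libraries. In crypts all 5 members tested were called, 4 higher and 1 lower, beside 74.2% of the 260 features tested, of which 41.2% were called higher and 33.1% lower. miR-150-5p passed the filter only through its crypt level, so its call there is a description. With no filter it differed by 7.66 (limma adjusted p = 5.64e-15). miR-155-5p differed by 5.65 (0.68, limma adjusted p = 4.37e-08) and miR-146a-5p by 2.69 (0.36, limma adjusted p = 2.62e-07). The sorted mean of miR-155-5p, 154 RPMMM, rests on Cd24-Low replicate 2 at 2896. Every other sorted library was at 63.8 or below. Its calls, here and for villi below, are therefore also descriptions. Since miR-150-5p is listed at 0 in 4 of the sorted groups, its fitted difference depends on the pseudocount (4.89 with 10 in place of 1) and no fold is given. miR-342-5p differed by 1.82 (limma adjusted p = 1.30e-05) and miR-146b-5p by -0.99 (limma adjusted p = 9.34e-06).

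In villi all 5 members were again called, 3 higher and 2 lower, where 66.2% of the 260 features were called, 33.8% higher and 32.3% lower. The differences were 4.803 for miR-150-5p (limma adjusted p = 1.13e-10 with no filter), 3.38 for miR-155-5p (limma adjusted p = 0.00012), 1.64 for miR-146a-5p (limma adjusted p = 0.000316), -0.95 for miR-146b-5p (limma adjusted p = 2.57e-05) and -0.75 for miR-342-5p (limma adjusted p = 0.0412). The last of these was lost with no filter (limma adjusted p = 0.105), after median-of-ratios scaling (limma adjusted p = 0.148), without any 1 of the 4 villi libraries, and without Lgr5-High replicate 1, germ-free replicate 1 or 2, or Negative replicate 4. miR-142-5p fell under the filter in these fits. With no filter it was higher by 4.49 in crypts (limma adjusted p = 1.08e-06) and by 3.11 in villi (limma adjusted p = 0.000299).

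Which sorted group stood on the other side changed the call of 4 of the 5 members in 1 or both tissues. miR-150-5p was called higher in both tissues against each of the 6 groups alone. miR-342-5p in crypts was level with Sox9-EGFP Low cells of chow-fed mice (a difference of -0.00285, limma adjusted p = 0.998) and missed the threshold against Lgr5-High, conventionalized and germ-free Low cells. In villi it was higher than in Negative cells by 3.31 (limma adjusted p = 9.93e-08), the reverse of its pooled direction. miR-146b-5p was slightly above Negative cells, by 0.09 in crypts (limma adjusted p = 0.705) and 0.13 in villi (limma adjusted p = 0.609). miR-146a-5p in villi missed the threshold against 3 groups alone: it was 0.20 above the Low cells of chow-fed mice (limma adjusted p = 0.737), 0.97 above Cd24-Low cells (limma adjusted p = 0.0709) and 1.28 above Lgr5-High cells (limma adjusted p = 0.0554).

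miR-155-5p in villi differed from Cd24-Low cells by 0.90 (limma adjusted p = 0.368), and by 2.44 (limma adjusted p = 0.000161) without Cd24-Low replicate 2. In crypts the same differences were 3.17 and 4.71 (limma adjusted p = 0.00233 and 8.40e-09). miR-143-3p, a stromal microRNA, averaged 20835 RPMMM in crypts and 20108 in villi against 135 over the sorted libraries, and miR-486-5p 945 and 281 against 22.2. Their part in the member differences was not tested. Dissected columns carry lane 4 and no label says that dissected and sorted libraries were prepared together, so tissue and preparation cannot be told apart.

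**Figure D4:**
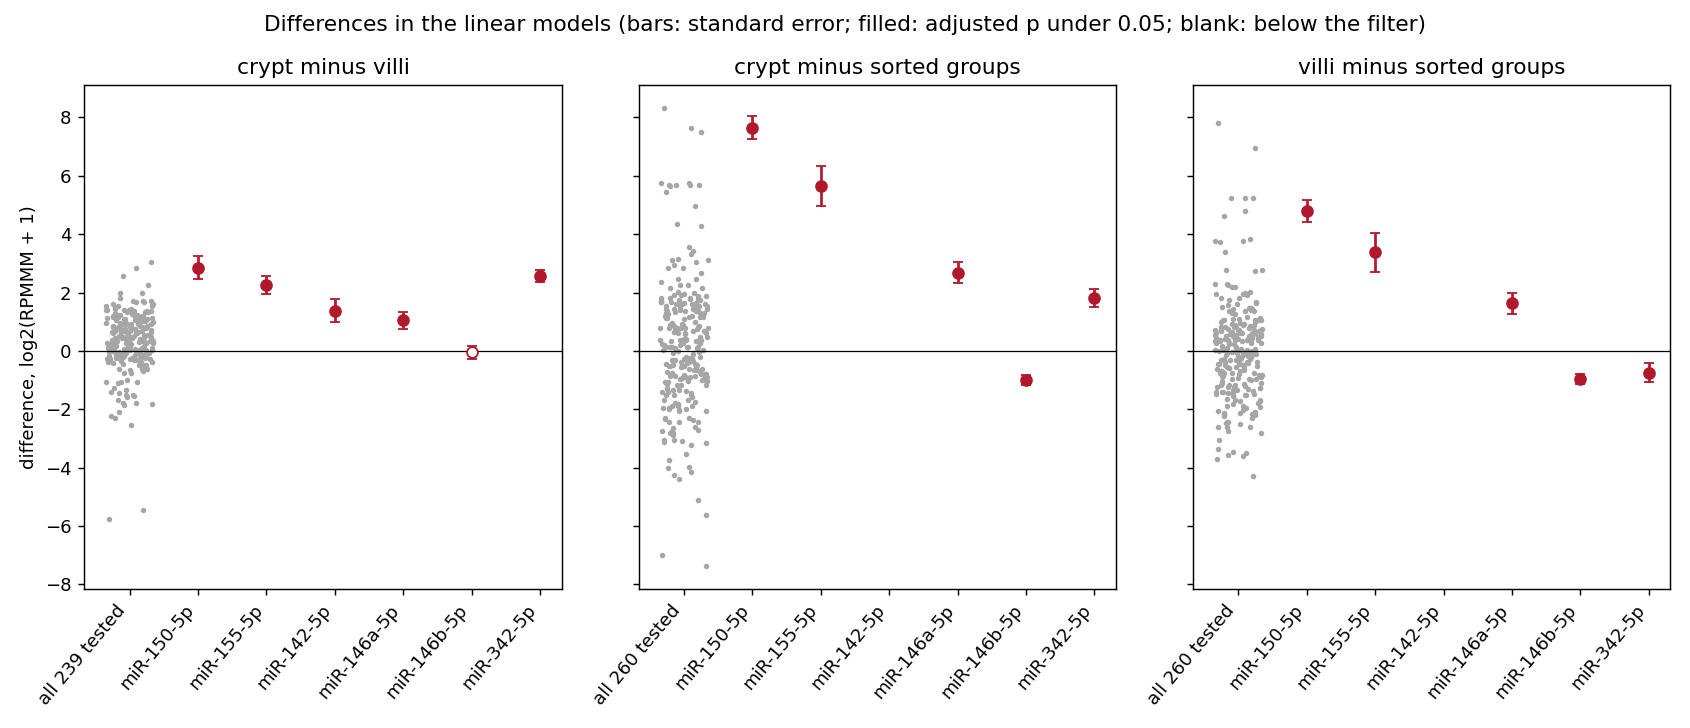
Differences of the members (circles, with standard errors) on log2(RPMMM + 1) for crypt minus villi and for each tissue minus the sorted groups, beside all tested features (gray, members included). Filled circles passed the adjusted threshold. miR-150-5p lies near the top in all 3 panels, and miR-146b-5p at or below 0.

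The third comparison set Sox9-EGFP Low against Negative cells of the same 4 mice. All 3 members tested were called higher in Low cells, where 63.8% of 221 features were called and 47.1% called higher. miR-342-5p averaged 182.4 ± 31.4 RPMMM in Low and 2.66 ± 1.88 in Negative cells (SD, n = 4 each), a difference of 5.87 (standard error 0.54, limma adjusted p = 1.94e-05). miR-146a-5p stood at 1073 ± 641 in Low against 105 ± 64.1 RPMMM in Negative cells and was 3.31 higher (0.56, limma adjusted p = 0.000789), and miR-146b-5p at 456 ± 169 against 117 ± 21.2 was 1.90 higher (0.30, limma adjusted p = 0.000592). In each of the 4 mice all 3 were higher in Low cells. The share of the 221 features that rise in all 4 mice was not counted. miR-342-5p passed the filter through Low cells only, and with no filter its adjusted p by limma was 1.65e-05. Median-of-ratios scaling moved the median of all features from 0.844 to -0.176 and the calls from 104 higher and 37 lower to 66 higher and 67 lower, and left these differences at 5.12, 2.39 and 0.98, all called.

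miR-155-5p and miR-342-3p averaged too little to be tested there. With no filter they were higher in Low cells by 3.39 (limma adjusted p = 0.00274) and 4.27 (limma adjusted p = 0.00013). miR-150-5p was at 0 in both fractions. Low columns name lane 1 and Negative columns lanes 4 and 5, so fraction and lane cannot be told apart within these 8 libraries. The erythroid sum was 10.6 to 51.1 RPMMM in Low and 0 to 14.7 in Negative cells, and the mesenchymal sum 50.01 to 75.2 and 109.9 to 141.01.

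**Figure D5:**
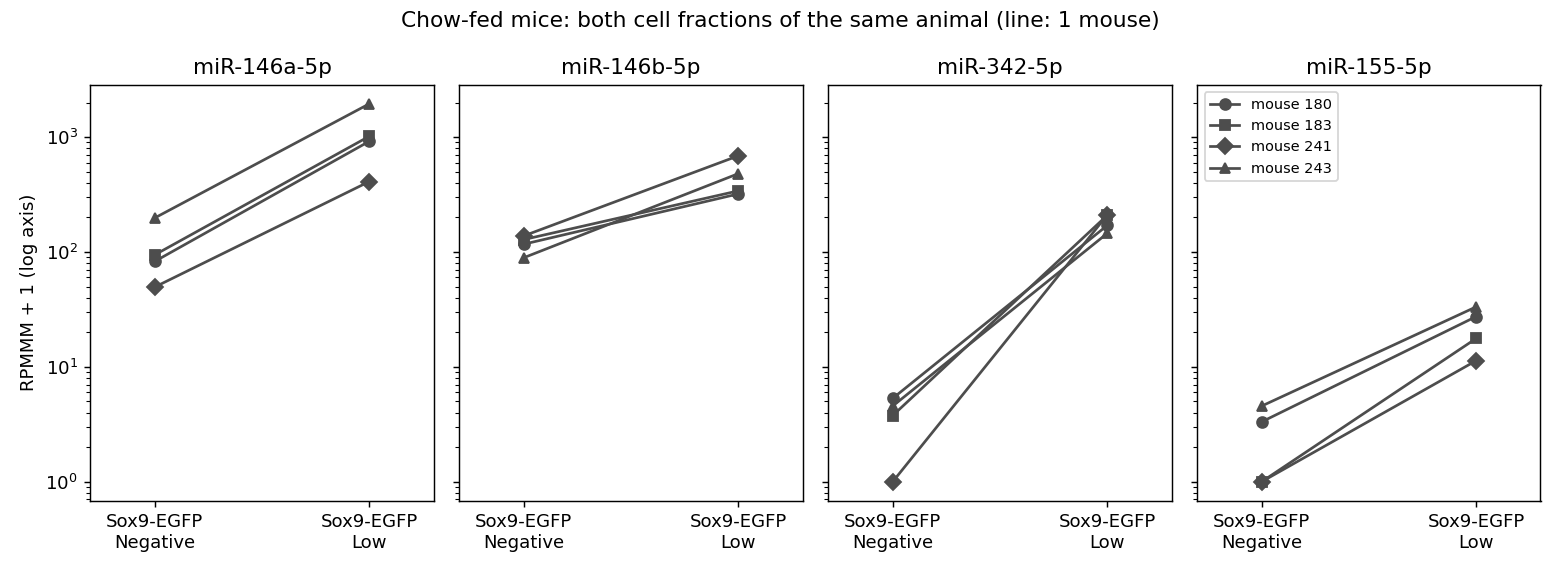
RPMMM + 1 (log axis) of 4 members in Sox9-EGFP Negative and Low cells, with 1 line for each of the 4 chow-fed mice. All lines rise toward Low cells, with the steepest rise for miR-342-5p.

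Lgr5-High cells were compared with Cd24-Low cells, 2 libraries against 4. Of 4 members tested 1 was called, beside 39.4% of 236 features (16.9% higher in Lgr5-High cells). miR-342-5p averaged 97.05 RPMMM in Lgr5-High and 29.8 in Cd24-Low cells, a difference of 1.60 (standard error 0.49, limma adjusted p = 0.0336). It passed the filter through Lgr5-High cells only, and the limma adjusted p with no filter was 0.0357. The call was lost without Cd24-Low replicate 1, 3 or 4 (limma adjusted p = 0.0887, 0.0543 and 0.0513), and the microRNA fell under the filter without either Lgr5-High library. miR-155-5p differed by -1.82 (1.74, limma adjusted p = 0.417), a value that rests on Cd24-Low replicate 2, without which the remaining Cd24-Low libraries bracket the Lgr5-High ones. miR-146a-5p differed by -0.32 (0.60, limma adjusted p = 0.697) and miR-146b-5p by 0.24 (0.27, limma adjusted p = 0.487). Lgr5-High columns name lane 8 and Cd24-Low columns none, so lane and group cannot be told apart.

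Germ-free mice were compared with conventionalized mice to ask what microbes change in Sox9-EGFP Low cells. None of the 3 members tested was called by limma, where 42.5% of 252 features were called (13.9% with more and 28.6% with less in germ-free mice), and 1 of the 3 had an unadjusted p under 0.05. That was miR-146b-5p, with 330.2 ± 37.5 RPMMM in germ-free against 255 ± 5.20 in the conventionalized libraries (SD, n = 4 each) and 0.36 higher in the former (standard error 0.16, limma adjusted p = 0.0862) that became 0.52 (limma adjusted p = 0.0266) after median-of-ratios scaling. All 4 germ-free libraries, at 277 to 360 RPMMM, were above all 4 conventionalized ones, at 249.7 to 261. miR-146a-5p differed by -0.08 (0.28, limma adjusted p = 0.828) and miR-342-5p by 0.14 (0.42, limma adjusted p = 0.809). With the filter at 10 RPMMM, miR-155-5p was lower in germ-free mice by 1.11 on the log2 scale, called at a limma adjusted p of 0.0232. With no filter the same difference was not called (limma adjusted p = 0.0683). For miR-155-5p too the groups did not overlap. The share of all features that separate in this way was not counted. Lane number 1 is named by a single library of either group, which stood at 277 (germ-free) and 249.7 RPMMM (conventionalized) of miR-146b-5p. These are too few for a test, and the columns name no run, so they need not share a batch.

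Conventionalized mice were also compared with chow-fed mice, which share the conventionalized libraries with the comparison above. Of 3 members 1 was called, and it was lower in conventionalized mice, beside 22.6% of all features tested called in either direction and 7.41% called lower. miR-146a-5p stood at 294 ± 60.5 RPMMM after conventionalization against 1073 ± 641 with chow (SD, n = 4 each), differing by -1.69 (standard error 0.42, limma adjusted p = 0.0277). The call was lost without chow replicate 1 (limma adjusted p = 0.0524) and without conventionalized replicate 1, 2 or 3 (0.0822, 0.0892 and 0.0622). miR-146b-5p differed by -0.76 (0.29, limma adjusted p = 0.0715) and miR-342-5p by -0.82 (0.37, limma adjusted p = 0.115), the latter called without conventionalized replicate 4 (-1.17, limma adjusted p = 0.0264). The chow libraries carry lane 1, as does conventionalized replicate 3, whose miR-146a-5p was 205 RPMMM. The columns name no run, so a shared lane number need not be a shared batch. Other conventionalized libraries carry lanes 3 and 5. Lane and group cannot be told apart here. The count over all features ran from 7 to 67 when single libraries were left out.

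The mRNA of Sox9-EGFP Low cells, from 4 mice each on chow, on a high fat diet, conventionalized and germ-free, was read for leukocyte genes in normalized counts. The single genes named here were chosen after their values were seen. Ptprc, the gene of the leukocyte surface protein CD45, was listed in all 16 libraries at 22.4 to 328, while the epithelial gene Epcam ran from 14073 to 37732. Other leukocyte genes varied within each list. Of the T lymphocyte list, the receptor genes Cd3e and Cd3g were at 0 in 5 and 3 libraries and never above 25.9, while the kinase gene Lck ran from 26.6 to 185 and the integrin gene Itgae from 11.97 to 42.7, both at 0 in none. Of the myeloid list, the granulocyte gene S100a8 was at 0 in every library, while Itgam ran from 8.76 to 173.6 and Cd68 and Lyz2 were at 0 in none. The B cell gene Ms4a1 ran from 4.44 to 102.6. Between germ-free and conventionalized mice none of the 24 leukocyte genes tested was called by limma, where 2.24% of 20214 genes were called (1.95% up and 0.292% down in germ-free mice), and 1 of the 24, the macrophage receptor gene Csf1r, had an unadjusted p under 0.05 (2.17 higher in germ-free mice, limma adjusted p = 0.227). Between conventionalized and chow-fed mice none of 15 was called, where 0.0948% of 17941 genes were called, and 3 of the 15 had an unadjusted p under 0.05. These were Cd37, a leukocyte surface gene (-1.49, limma adjusted p = 0.319), Ms4a1, of B cells (1.69, limma adjusted p = 0.402), and, with the lowest p, Rac2, a small GTPase of blood cells, at 90.3 ± 34.6 against 417 ± 216 normalized counts (SD, n = 4 each), a difference of -2.13 (limma adjusted p = 0.076).

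Of the host genes, Evl, Mir155hg and Mir142hg are given. Evl, the host of miR-342, was listed at 140.5 to 230.3 normalized counts in all 16 Sox9-EGFP Low libraries, with a median of 187. Mir155hg was at 0 in 15 of 16 libraries and Mir142hg in 11 of 16, and neither exceeded 3.35, although miR-155-5p was listed in all 12 Sox9-EGFP Low small RNA libraries. In the 12 mice with both assays the values can be set side by side. The mouse with the highest Ptprc, germ-free replicate 3 at 328 normalized counts, had miR-155-5p at 10.6 RPMMM and miR-342-5p at 63.7. Chow-fed replicate 2, with the lowest Ptprc of these mice at 24.2, had miR-155-5p at 16.7 and miR-342-5p at 208. The mouse of conventionalized small RNA replicate 4 had the highest miR-155-5p of these mice (48.9) and the highest miR-342-5p (209.7), with Ptprc between these extremes.

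The authors' deposited table for APC mutant against control intestine, 2 samples each per the labels, holds 6 of the members among 1060 entries, of which 20.3% have an adjusted p under 0.05. Of the 6, miR-146a-5p alone passed in the authors' deposited table, with a log2 fold change of 5.99, a standard error of 1.16 and an adjusted p of 6.04e-06. The authors' deposited table gives it a mean of 5007 in mutants and 78.7 in controls. For miR-155-5p the authors' deposited table gives 0.36 (adjusted p 0.451), for miR-146b-5p -0.48 (0.567), for miR-342-5p 4.62 (0.343), for miR-342-3p 2.87 (0.331) and for miR-150-5p 4.95 (0.613), the last with a control mean of 0.

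Features with the most similar profile were found from the 8 group means of log2(RPMMM + 1), among 159 plain-named features with a mean of at least 50 RPMMM. miR-150-5p was nearest to mir-1981-5p (Pearson r 0.955), mir-3107-5p (0.948) and mir-486-5p (0.948). For miR-155-5p the nearest were mir-130b-5p (0.956), mir-486-5p (0.917) and mir-3107-5p (0.917), and for miR-146a-5p mir-151-3p (0.927), mir-486-5p (0.908) and mir-3107-5p (0.907). miR-342-5p was nearest to let-7e-5p (0.952), mir-423-5p (0.947) and let-7b-5p (0.942), and miR-146b-5p to mir-27b-5p (0.925), mir-1224-5p (0.918) and mir-181c-5p (0.894). Among the members, r was 0.888 for miR-150-5p with miR-155-5p, 0.895 for miR-146a-5p with miR-155-5p, 0.179 for miR-150-5p with miR-342-5p and -0.04 for the miR-146 pair. These are descriptions over 8 points that share libraries and a fixed total per library.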

How the data were processed

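Small RNA was measured in 30 libraries (TriLink CleanTag kit per the labels) and mRNA in 16 (SMARTer Ultra Low, then Nextera XT, per the labels). The deposited small RNA values are RPMMM, handled as an RPM unit. The deposited mRNA values are normalized counts, a signal scaled by the authors, and the labels do not say how. For APC, the deposited comparison holds log2 fold changes by the authors with a p-value each, raw and adjusted, the authors' mean signal of either group, and a score (the test statistic) from the authors. The submitters' processing notes name mm10, STAR, Salmon, Cell Ranger and DESeq2, with no versions. The single-cell files were not used here, nor were 4 small RNA columns that match no sample. Of the mRNA entries, 381 had no name; these, 0.0338% to 0.0804% of a library, were left out.

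Groups were taken from the labels and compared with limma 3.58.1 in R 4.3.3 (eBayes with trend) on log2(value + 1), two-sided, at a mean of at least 50 RPMMM or 10 normalized counts, with Benjamini-Hochberg adjustment over all features tested. In simulated crypt and villi data with 239 features, most features were changed and all were given the same spread. There limma called 98% of changes of 1 on the log2 scale and 7.69% of the 39 features with no change. Real features differ in spread, so these rates need not hold for them. Python 3.11.15 with pandas 2.3.3, numpy 2.4.6 and matplotlib 3.10.9 did the rest. Members, lists and tests were chosen with earlier results of these data known. All members were accounted for, those reaching a group mean of 50 RPMMM in every library. The list microRNAs named were called, the most abundant of their list, or entered under other names, and not every called list feature was named. Alike features were the 3 highest by Pearson r. Sox9-EGFP Low and Negative libraries of the same number come from the same mouse per the labels, and their deviations from group means correlated at 0.147, 0.0998, 0.202 and -0.202. Alternatives changed the pseudocount, filter, scaling, block, samples in the fit and each replicate.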

Additional observations from a re-analysis of the deposited data

Results flagged for a closer look

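Within groups of 4, a library was picked out where its gap to the nearest other library was most of the group's range (Dixon's test). Of 53 groups, 9 were picked. The rate of about 1 in 20 expected by chance does not apply where 3 libraries are listed at 0, since any value above 0 is then picked. The clearest is miR-155-5p in Cd24-Low replicate 2, at 2896 RPMMM against at most 63.8 in the other 3 libraries. In the other 8 cases 3 libraries were listed at 0 and 1 slightly above, so the values lie near the lowest level listed. These were miR-142-3p at 1.09 RPMMM in Cd24-Low replicate 1 and 1.96 in villi replicate 2, miR-142-5p at 5.31 in Sox9-EGFP Low chow replicate 4, and miR-146b-3p at 6.31 in Sox9-EGFP Low chow replicate 3 and 4.93 in crypt replicate 3. The rest were miR-223-3p at 3.31 in crypt replicate 4 and 5.57 in villi replicate 3, and miR-223-5p at 0.99 in Cd24-Low replicate 2.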

How the results depend on the processing

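Over the values of single members and the named genes, 715 alternative values kept their direction and side of the threshold, 35 lost and 5 gained a call, and 18 turned direction. The cause of each change was not tested. Crypt minus villi kept 3 member calls with median-of-ratios scaling and 3 with the spread taken over all 30 libraries (5 in the report). Sox9-EGFP Low minus Negative gave 5 calls with the filter at 10 RPMMM and 5 without a filter, where more members are tested. Germ-free minus conventionalized gave 1 with the filter at 10 and 1 with median-of-ratios scaling (0 in the report). Conventionalized minus chow gave 2 with the spread over 30 libraries, and 0 to 2 leaving out single libraries. Lgr5-High minus Cd24-Low gave 2 with plain and suffixed entries summed and 0 to 1 leaving out single libraries. Crypt minus sorted gave 8 without a filter. Villi minus sorted gave 2 against Cd24-Low alone, and 3 when Cd24-Low replicate 2 was also left out, an alternative chosen after seeing the data.

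Directions turned as follows. Against 1 sorted group alone, miR-342-5p was -0.00285 in crypts (chow Low) and 0.00617 (Cd24-Low) and, called, 3.31 (Negative) in villi, and miR-146b-5p was 0.092 in crypts and 0.13 in villi (Negative). With median-of-ratios scaling miR-146a-5p in germ-free minus conventionalized became 0.074. Leaving out single libraries, miR-146b-5p ran from -0.15 to 0.10 in crypt minus villi, miR-146a-5p from -0.93 to 0.30 in Lgr5-High minus Cd24-Low and from -0.28 to 0.094 in germ-free minus conventionalized, where miR-342-5p ran from -0.073 to 0.48 and Ptprc mRNA from -0.13 to 0.90. Counts over all features ran from 54 to 113 for Lgr5-High minus Cd24-Low, and for mRNA from 1 to 684 (germ-free minus conventionalized) and 0 to 6 (conventionalized minus chow). In the latter, 1 leukocyte gene, Rac2, was called without a filter.

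With the replicate number as a block, Lgr5-High minus Cd24-Low gave 0 calls and miR-146a-5p turned to 0.42, and conventionalized minus chow mRNA gave 1 leukocyte call, Rac2, with 165 genes called in all. For the mice that Sox9-EGFP Low and Negative cells share, the block changed no member call. Elsewhere the libraries share only a number. A count test on recovered reads was not run, since low values were not whole multiples of 1 step for nearly all entries. Members listed at 0 or a few RPMMM are near the lowest value listed, which limits what depth can show.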
